A study of Rattus norvegicus with 4 samples.

Results

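The genes described here are the positive limb of the circadian clock and the nuclear receptors that act on it: *Arntl*, *Clock*, *Npas2*, *Nr1d1*, *Nr1d2* and *Rora*. They were taken from the deposited table by gene symbol, and all 6 were found, 6 of 31457 rows. Liver mRNA of Lewis rats (allotype RT1L) had been selected by its poly(A) tail and sequenced on an Illumina MiSeq, with 1 library per group. The miR-27b liver came from a partially hepatectomised rat given cells labelled ASCs-miR27b into a vein. The siRNC liver came from a partially hepatectomised rat given cells labelled ASCs-siRNC by the same route, the saline liver from one given saline, and the naive liver from a naive control rat. The labels spell out neither ASCs, taken here to mean adipose-derived stem cells, nor siRNC, taken to mean a control RNA. The sources used here do not give the age or sex of the rats, whether tissue was pooled, the interval after surgery or the time of day at collection.

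In the mammalian clock, BMAL1 (the product of *Arntl*, named *Bmal1* in current annotation) pairs with CLOCK, or with its paralog NPAS2, and the pair activates genes through E-boxes. Among those genes are the *Per* and *Cry* repressors, which close the main loop, and *Nr1d1* and *Nr1d2*, which encode the haem-binding receptors REV-ERB alpha and beta. REV-ERB receptors repress, and ROR receptors such as the product of *Rora* activate, genes with ROR elements, and *Arntl* is the best known of these. In rodent liver the transcripts of *Arntl* and of *Nr1d1* are known to peak at opposite times of day.

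The promoters of *Arntl* and *Nr1d1* are shown because these 2 genes sit at the ends of that loop and took opposite directions in the data. The sequences are the 250 bases before an annotated start site in RefSeq (build GRCr8, not the rn5 build of the deposited values), 5′ to 3′ on the strand of the gene, with motif matches in capitals. *Arntl* lies on the plus strand (chr1:176766078-176766327). Its RefSeq gene span begins at 176766222, so the end of the window, with both runs in capitals, lies inside that span. *Nr1d1* has 2 annotated starts on the minus strand, here called the downstream start (chr10:84229455-84229704) and the upstream start (chr10:84231813-84232062).
Arntl: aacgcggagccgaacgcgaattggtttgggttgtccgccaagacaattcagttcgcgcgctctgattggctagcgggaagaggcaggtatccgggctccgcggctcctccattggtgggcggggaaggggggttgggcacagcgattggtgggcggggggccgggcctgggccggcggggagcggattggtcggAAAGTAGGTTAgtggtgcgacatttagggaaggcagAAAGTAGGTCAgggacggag
Nr1d1 downstream start: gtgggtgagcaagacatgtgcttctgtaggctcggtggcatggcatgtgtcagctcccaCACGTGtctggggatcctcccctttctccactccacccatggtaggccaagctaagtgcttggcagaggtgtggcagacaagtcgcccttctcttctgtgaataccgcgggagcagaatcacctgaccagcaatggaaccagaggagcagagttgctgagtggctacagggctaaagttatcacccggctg
Nr1d1 upstream start: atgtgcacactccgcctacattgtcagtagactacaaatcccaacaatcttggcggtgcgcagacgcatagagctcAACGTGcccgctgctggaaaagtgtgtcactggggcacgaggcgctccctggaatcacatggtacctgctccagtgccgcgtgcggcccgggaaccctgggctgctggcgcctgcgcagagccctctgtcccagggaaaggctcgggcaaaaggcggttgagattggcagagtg

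Both strands of each window were searched for 5 motifs. The long form of the ROR element was spelled, after this promoter had been read, as its 2 runs in capitals with any base at the tenth letter, and it stands in the *Arntl* window at positions -56 to -46 and -20 to -10, counted back from the start. The second of these holds the shorter core TAGGTCA at -16 to -10. The E-box CACGTG was found at -191 to -186 before the downstream start of *Nr1d1*, and its variant CACGTT, on the opposite strand, at -174 to -169 before the upstream start. Of 33469 rat windows of the same length, 0.0359% hold the long form, 2.26% TAGGTCA, 5.59% CACGTG and 4.07% CACGTT. The D-box TTATGTAA, held by 0.828% of windows, was in none of the 8 windows of the 6 genes. The windows of *Clock*, *Npas2*, *Nr1d2* and *Rora* held none of the 5 motifs as spelled. Those of *Npas2* and *Rora* lie inside gene spans that begin at 48959225 and 78182710, and the bases before these spans were not searched. A match is a run of letters and not a bound site, and binding was not measured.

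The deposited values are log2 normalized values minus a baseline of each gene, so they give differences between libraries within a gene and not its level. Each value is printed on that scale, and each log2 fold is the difference of 2 of them. With 1 library per group there is no replicate spread and no test between conditions, and 2-fold or more is used as a mark of size. The exact binomial 95% intervals cover counting error only, as copies made by PCR are not separate molecules and 1 animal stands for each group. For 5 of the 6 genes the reads themselves could not be recovered. Their baseline was probably at least 16 normalized reads. The probability was 0.959 for *Arntl*, 0.972 for *Clock*, 0.976 for *Nr1d2* and 0.998 for both *Npas2* and *Nr1d1*. Their intervals are computed at 16, where they are widest. *Npas2* and *Nr1d1* are also in the set of high level, whose bound their baseline reached with probabilities of 0.816 and 0.817. At that likelier level their intervals would be narrower, so one that includes 0 here may not include it there. The baseline is not the value of any of the 4 libraries in *Npas2*, *Nr1d1* and *Rora*, and an inferred level can be wrong for a single gene, with the reads and intervals that rest on it. All 6 genes passed the filter on low levels, among 9781 genes that did. The size factors of the libraries lay between 0.956 and 1.039.

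In all 6 genes the naive liver held an extreme value of the 4 libraries. *Arntl*, *Clock*, *Npas2* and *Rora* were highest in the naive liver, and *Nr1d1* and *Nr1d2* were lowest there. Among the 9781 kept genes, the naive library was the highest in 32.2% and the lowest in 30.1%. The same 4 genes were also lowest in the siRNC liver and shared 1 order in full, naive, miR-27b, saline and then siRNC. The counting intervals of miR-27b against saline included 0 in all 4 genes, for *Npas2* at a level below its likelier one. Those of siRNC against miR-27b and against saline included 0 in *Clock* and *Rora*. The share of kept genes with the full order was not counted. A naive maximum together with a siRNC minimum was found in 9.72% of the kept genes.

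**Figure D1:**
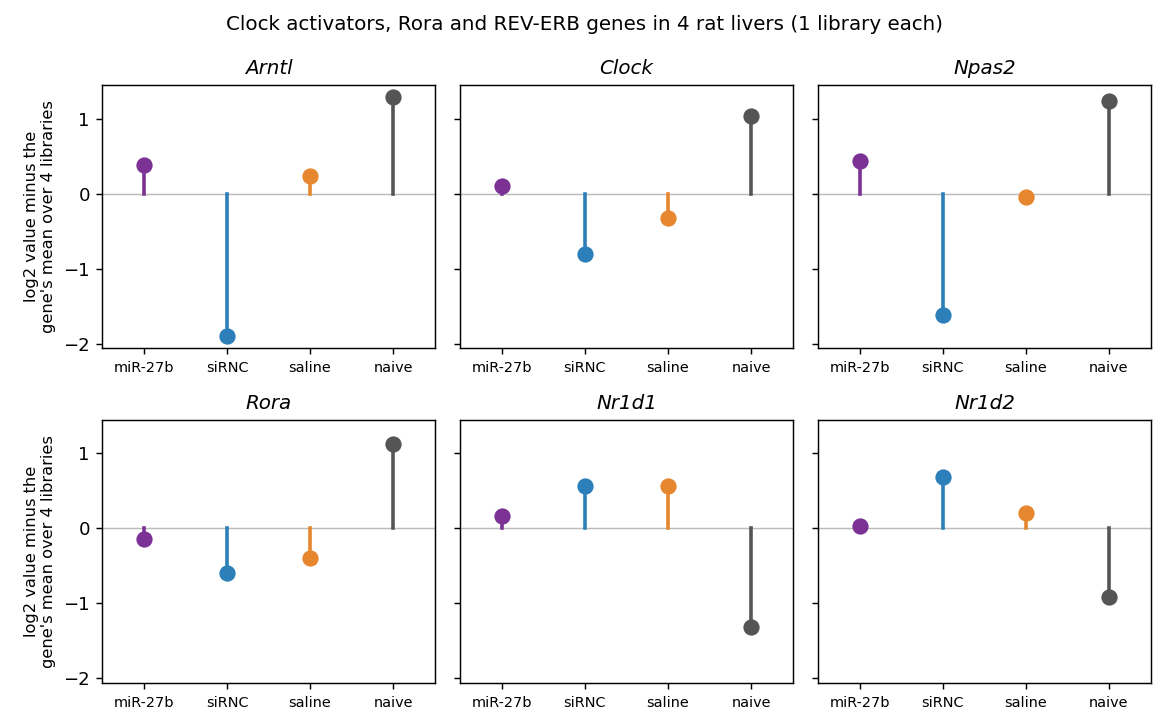
Deposited log2 value minus the mean of the gene over the 4 libraries (y axis) for each gene in the miR-27b, siRNC, saline and naive livers (x axis), 1 point per library with a line to 0. *Arntl*, *Clock*, *Npas2* and *Rora* have their highest point in the naive and their lowest in the siRNC liver (-1.9 for *Arntl*), whereas *Nr1d1* and *Nr1d2* have their lowest point in the naive liver (-1.31 and -0.92).

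*Arntl* (gene ID 29657) encodes the partner that both CLOCK and NPAS2 need. Its value was 0.15 in the miR-27b, -2.13 in the siRNC, 0 in the saline and 1.07 in the naive liver. The siRNC liver lay far below the other livers, whereas the miR-27b and saline livers lay close together. Against naive, *Arntl* was 9.17-fold lower in the siRNC liver (log2 fold -3.2, 95% interval -5.04 to -1.59), 2.09-fold lower in the saline liver (-1.07, -1.98 to -0.16) and 1.88-fold lower in the miR-27b liver (-0.91, -1.86 to -0.04). A log2 fold as far from 0 as the first of these was seen in 0.29% of the kept genes. The span over the 4 libraries was 3.2 log2 units, against 2.84 for *Npas2*, an order that turned with a pseudocount of 5, where siRNC against naive was -2.15 for *Arntl* and -2.77 for *Npas2*.

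*Npas2* (gene ID 316351), which encodes the paralog that can stand in for CLOCK, followed the same course. It stood at 0.37 in the miR-27b, -1.67 in the siRNC, -0.1 in the saline and 1.17 in the naive liver. Its siRNC value was again set apart below the rest. Relative to naive it was 7.18-fold lower in the siRNC liver (log2 fold -2.84, 95% interval -4.56 to -1.49) and 2.4-fold lower in the saline liver (-1.27, -2.17 to -0.33). In the miR-27b liver it was 1.74-fold lower (-0.8), and the counting interval of -1.65 to 0.06 included 0. At the likelier, higher level of *Npas2* that interval would be narrower, so the fold is not shown to lie within counting error.

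*Clock* (gene ID 60447) encodes the usual partner of BMAL1, a histone acetyltransferase, and is known in rodent liver for a shallower rhythm than *Arntl*. Its values were 0 in the miR-27b, -0.91 in the siRNC, -0.43 in the saline and 0.94 in the naive liver. The order matched that of *Arntl*, but the span of 1.85 log2 units was narrower. *Clock* was 3.6-fold lower in the siRNC than in the naive liver (log2 fold -1.85, 95% interval -3.04 to -0.67), 2.58-fold lower in the saline liver (-1.37, -2.51 to -0.4) and 1.92-fold lower in the miR-27b liver (-0.94, -1.97 to -0.03). The 3 hepatectomised livers were not separated from each other beyond counting error at this level.

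*Rora* (gene ID 300807) encodes the receptor ROR alpha, the activator at ROR elements. It is the one gene of the 6 whose reads were recovered: 11 in the miR-27b, 8.5 in the siRNC, 10 in the saline and 27.1 in the naive library, where fractions are as the recovery gave them and their origin was not stated. Its deposited values were 0.02 in the miR-27b, -0.42 in the siRNC, -0.24 in the saline and 1.29 in the naive liver. The hepatectomised livers lay together, all below the naive liver. *Rora* was 2.41-fold lower in the miR-27b (log2 fold -1.27, 95% interval -2.42 to -0.21), 3.28-fold lower in the siRNC (-1.71, -3.14 to -0.62) and 2.88-fold lower in the saline than in the naive liver (-1.53, -2.73 to -0.43). Of the 4 genes highest in naive, it alone was at least 2-fold lower in all 3 hepatectomised livers, as were 1.0% of the kept genes. It passed the filter on its mean over the 4 libraries, which the naive library raised, so nothing is read from that share, and with a pseudocount of 20 its log2 folds were -0.6 in the miR-27b, -0.75 in the siRNC and -0.69 in the saline liver. *Rorb*, which encodes ROR beta, was listed at 0 in all 4 libraries.

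*Nr1d1* (gene ID 252917) encodes REV-ERB alpha, a repressor that acts at the same elements as ROR alpha. Its value was -0.12 in the miR-27b, 0.28 in the siRNC, 0.28 in the saline and -1.61 in the naive liver. The siRNC and saline livers were level, the miR-27b liver was slightly below them and the naive liver was far below. Relative to naive, *Nr1d1* was 2.8-fold higher in the miR-27b liver (log2 fold 1.49, 95% interval -0.04 to 3.34), 3.68-fold higher in the siRNC liver (1.88, 0.42 to 3.66) and 3.7-fold higher in the saline liver (1.89, 0.45 to 3.68). At least 2-fold higher in all 3 hepatectomised livers were 3.56% of the kept genes.

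The annotated 3′ part of *Nr1d1* overlaps *Thra*, a thyroid hormone receptor gene on the opposite strand, over 1061 bases of RefSeq annotation. The sources used here do not say whether counting used strand, so reads of the shared stretch cannot be assigned to one gene. *Thra*, looked up because of this overlap, stood at 0 in the miR-27b, -0.06 in the siRNC, -0.36 in the saline and 0.42 in the naive liver. Against naive its log2 folds were -0.42, -0.48 and -0.78 in the miR-27b, siRNC and saline livers, opposite in sign to those of *Nr1d1*.

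*Nr1d2* (gene ID 259241) encodes REV-ERB beta, which overlaps in function with REV-ERB alpha. Its values were -0.18 in the miR-27b, 0.48 in the siRNC, 0 in the saline and -1.13 in the naive liver. It was highest in the siRNC liver, where *Arntl* was lowest, but its counting intervals for siRNC against saline and against miR-27b included 0. Against naive it was 1.93-fold higher in the miR-27b liver (log2 fold 0.95, 95% interval -0.51 to 2.49), 3.06-fold higher in the siRNC liver (1.61, 0.33 to 3.08) and 2.19-fold higher in the saline liver (1.13, -0.15 to 2.7). The intervals in the miR-27b and saline livers included 0.

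**Figure D2:**
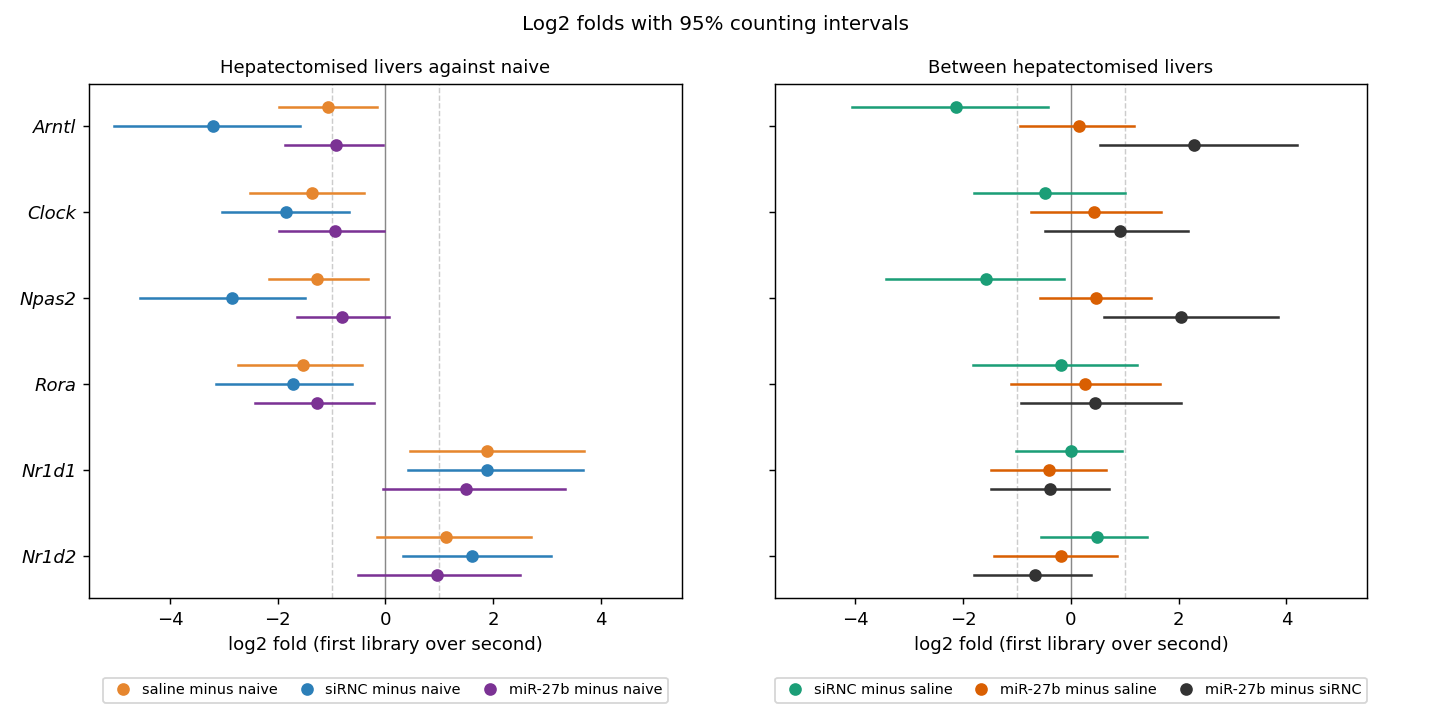
Log2 fold (x axis, first library over second) of each gene (rows) with exact binomial 95% counting intervals as bars, against naive (left) and between hepatectomised livers (right); dashed lines mark 2-fold. On the left *Arntl* to *Rora* lie below 0 and both REV-ERB genes above 0 in the 3 comparisons, and on the right *Arntl* and *Npas2* are the 2 genes whose intervals lie clear of 0, in the comparisons that hold the siRNC library.

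Each hepatectomised and infused liver was first set against the naive liver. The saline liver had 4 of the 6 genes at least 2-fold lower and 2 at least 2-fold higher. Of all kept genes, 9.83% were at least 2-fold apart there, 3.78% lower and 6.04% higher. In the siRNC liver the same split of 4 lower and 2 higher was seen, against 3.46% lower and 6.24% higher among the kept genes (9.69% in all). In the miR-27b liver 1 gene, *Rora*, was at least 2-fold lower and 1, *Nr1d1*, at least 2-fold higher, against 4.06% and 8.47% of the kept genes (12.5% in all). The other 4 genes had log2 folds between -0.94 and 0.95 in that liver. These 3 comparisons share the naive library, and a displacement of that library alone appears in each of them. The median log2 fold of all kept genes against naive was -0.025 in the miR-27b, -0.003 in the siRNC and -0.007 in the saline liver.

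The comparison of the siRNC with the saline liver sets the control cells against the vehicle after hepatectomy. *Arntl* was 4.38-fold lower in the siRNC liver (log2 fold -2.13, 95% interval -4.07 to -0.42) and *Npas2* 2.99-fold lower (-1.58, -3.43 to -0.12). These 2 of 6 genes were at least 2-fold lower, against 1.87% of the kept genes, and 4.22% were at least 2-fold apart. *Clock* (-0.48, -1.79 to 1.0), *Rora* (-0.19, -1.82 to 1.22) and *Nr1d2* (0.48, -0.56 to 1.42) had intervals that included 0, and *Nr1d1* stood at 0.28 in both livers, with an interval of -1.01 to 0.95. A log2 fold at least as far from 0 as that of *Arntl* was found in 0.34% of the kept genes. With *Arntl* placed at the bottom of its level class, its log2 fold was -1.28 with a pseudocount of 5 and -0.61, short of 2-fold, with a pseudocount of 20, whereas *Npas2*, placed in a higher class, was at -1.52 and -1.37.

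For the miR-27b liver against the siRNC liver, whose labels differ in what the cells carried, the same genes were higher. In this and every other comparison, treatment, animal and time of collection cannot be told apart with 1 library per group. *Arntl* was 4.88-fold higher in the miR-27b liver (log2 fold 2.29, 95% interval 0.54 to 4.19) and *Npas2* 4.13-fold higher (2.05, 0.62 to 3.84). At least 2-fold higher were 2 of the 6 genes and 2.96% of the kept genes, and 5.47% of the kept genes were at least 2-fold apart. *Clock* was 1.88-fold higher (0.91, -0.48 to 2.18) and *Rora* 1.36-fold higher (0.44, -0.92 to 2.05), both with 0 inside the interval. *Nr1d1* (-0.39, -1.48 to 0.7) and *Nr1d2* (-0.66, -1.8 to 0.37) lay below 0, also with 0 inside the interval. For *Nr1d1* that interval would be narrower at its likelier, higher level. With pseudocounts of 5 and 20 *Arntl* was at 1.4 and 0.68, and *Npas2* at 1.98 and 1.81. The siRNC library stands on opposite sides of this comparison and the previous one, so low *Arntl* and *Npas2* in that library appear in both.

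Between the miR-27b and the saline liver none of the 6 genes was 2-fold apart, against 4.54% of the kept genes (2.46% higher and 2.08% lower), and all 6 counting intervals included 0. Log2 folds were 0.15 for *Arntl* (95% interval -0.94 to 1.18), 0.43 for *Clock* (-0.75 to 1.67), 0.47 for *Npas2* (-0.58 to 1.49) and 0.26 for *Rora* (-1.12 to 1.65). They were -0.4 for *Nr1d1* (-1.49 to 0.66) and -0.18 for *Nr1d2* (-1.43 to 0.86). Each of the 6 intervals reached past 2-fold in at least 1 direction, and for all but *Rora* they are the widest intervals of the level class. The likelier level of *Npas2* and *Nr1d1* is higher, so for them the inclusion of 0 depends on the level used.

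**Figure D3:**
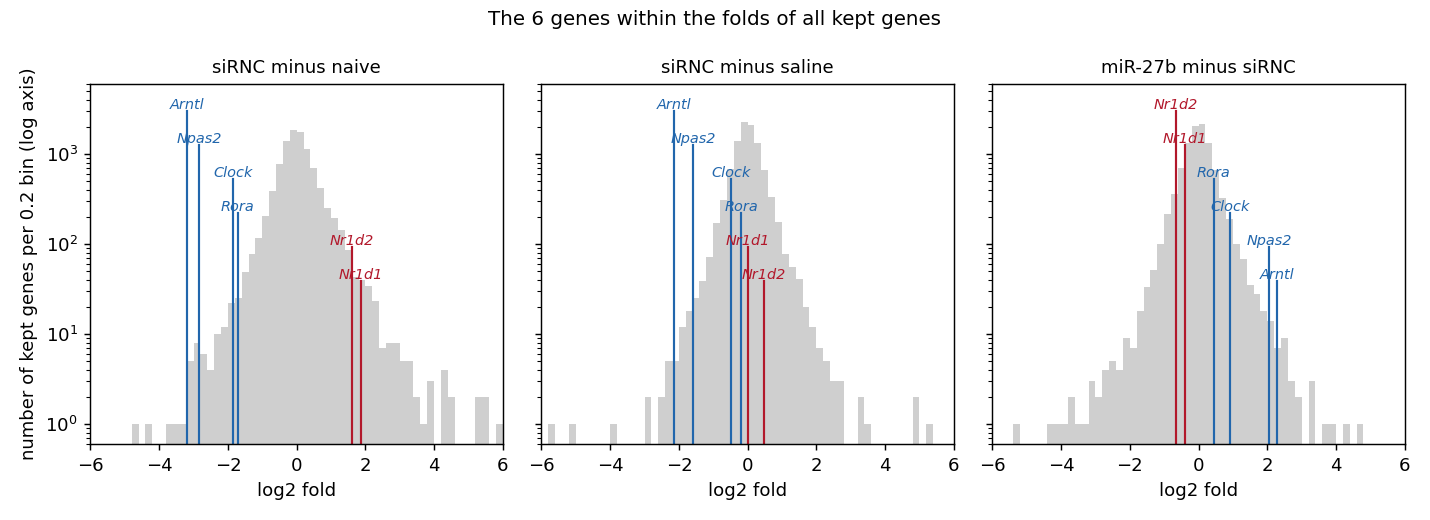
Log2 folds of the 9781 kept genes (grey bars, number of genes per bin on a log axis) for siRNC minus naive, siRNC minus saline and miR-27b minus siRNC, with the 6 genes as vertical lines (blue for *Arntl*, *Clock*, *Npas2* and *Rora*, red for the REV-ERB genes; line height has no meaning). *Arntl* and *Npas2* stand in the lower tail of the first 2 panels (-3.2 and -2.84, then -2.13 and -1.58) and in the upper tail of the third (2.29 and 2.05).

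Differences between 2 genes within 1 library do not depend on how libraries were scaled, and they set the activators against the REV-ERB genes directly. Relative to naive, the log2 difference of *Arntl* minus *Nr1d1* was -2.4 in the miR-27b, -5.08 in the siRNC and -2.95 in the saline liver. For *Npas2* minus *Nr1d1* the shifts from naive were -2.28 in the miR-27b, -4.72 in the siRNC and -3.15 in the saline liver. *Rora* minus *Nr1d1* shifted by -2.76, -3.6 and -3.41 in those 3 livers, a narrower spread. The shift was thus furthest from 0 in the siRNC liver for each of these pairs, with no interval computed for it. For *Rora* minus *Nr1d1* the siRNC shift lay only -0.18 from that of saline. The counting interval of *Rora* in siRNC against saline included 0.

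The 2 partners of BMAL1 were also set against each other, without an interval for the difference. Relative to naive, *Npas2* minus *Clock* was 0.14 in the miR-27b, -1.0 in the siRNC and 0.1 in the saline liver, and *Arntl* minus *Clock* was 0.03, -1.35 and 0.3. The counting intervals of *Npas2* and *Clock* in the siRNC against the naive liver overlap, as do those of *Arntl* and *Clock*. *Arntl* minus *Npas2* stayed between -0.35 and 0.2 in all 3 livers. *Nr1d1* minus *Nr1d2* was 0.54, 0.27 and 0.75 in the miR-27b, siRNC and saline livers, so the alpha gene stood further above naive than the beta gene in each.

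The repressors of the main loop, *Per* and *Cry* genes with *Bhlhe40*, did not share 1 course. Of 8 listed, 6 passed the filter, *Bhlhe41* was listed at 0 in all 4 libraries and *Ciart* was not analysed here. In the siRNC against the saline liver all 6 lay above 0, 5 of them at least 2-fold, with a median log2 fold of 1.31, beside -0.007 over all kept genes and 2.35% at least 2-fold higher. That count was 3 with a pseudocount of 5 normalized reads, 1 with a pseudocount of 20 and 1 at 3-fold, and none of the 6 is in the set of high level. For *Per2*, 60.0 reads in the siRNC library stood against 12 in the saline library (log2 fold 2.37), *Per3* was at 1.54 and *Cry1*, with 31.0 and 15.0 reads, at 1.09. In the miR-27b against the siRNC liver all 6 lay below 0, with a median of -0.87 and with *Per2* at -3.83 and *Per3* at -3.43 (2.5% of kept genes were at least 2-fold lower). In both comparisons, which share the siRNC library, the repressors lay on the other side of 0 from *Arntl* and *Npas2*. In the miR-27b against the saline liver 3 repressors lay above 0 and 3 below (median 0.04). There *Per2*, with 4.0 reads in the miR-27b library, was at -1.46 and *Per3* at -1.89. These 2 were at least 2-fold lower, beside 2.08% of the kept genes, so low miR-27b values also enter the -3.83 and -3.43. Pseudocounts of 5 and 20 left 1 and 0 repressors 2-fold apart between miR-27b and saline. Against naive the saline liver had 1 repressor at least 2-fold higher, *Per3* at 4.0, and 2 at least 2-fold lower, *Cry1* at -1.47 and *Bhlhe40* at -2.25. Of all kept genes, 6.04% were at least 2-fold higher there and 3.78% lower. The naive value of *Per3* was -3.96, so few naive reads may stand behind its fold.

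The output genes of the clock, which include the D-box binding factors, were all above naive in the saline liver (6 of 6, 2 of them at least 2-fold, median 0.71) but parted in the other livers. Over all kept genes the median in the saline liver was -0.007 and 6.04% were at least 2-fold higher. *Dbp*, the PAR bZIP activator driven through E-boxes, had log2 folds against naive of 3.54 in the miR-27b, 6.72 in the siRNC and 5.13 in the saline liver. It is not in the set of high level and its naive value was -5.13, so few naive reads may stand behind these folds. *Tef*, of the same family, was at 0.49, 1.42 and 0.74. *Nampt*, the rate-limiting enzyme of NAD salvage and a target of the BMAL1 pair in mouse liver, had 431.0 reads in the miR-27b, 642.8 in the siRNC, 752.0 in the saline and 187.4 in the naive library. *Nfil3*, a D-box repressor under REV-ERB control in mouse, had 178.0 reads in the miR-27b, 57.5 in the siRNC, 170.0 in the saline and 137.9 in the naive library, lowest in the siRNC liver like *Arntl* and *Npas2*. Of 6 output genes that passed the filter, 4 were at least 2-fold higher and 1, *Nfil3*, at least 2-fold lower in the siRNC than in the naive liver (median 1.58), beside 6.24% and 3.46% of the kept genes. *Wee1*, a kinase that restrains entry into mitosis, was low in the miR-27b liver alone, with 6.1 reads there, 37.0 in the siRNC, 36.0 in the saline and 27.0 in the naive library.

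**Figure D4:**
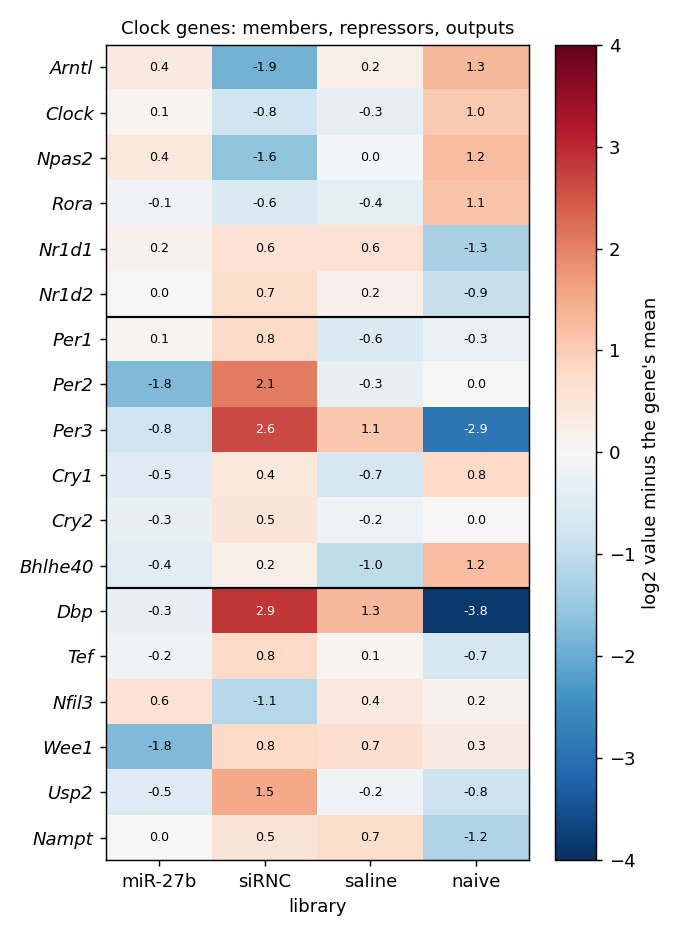
Log2 value minus the mean of the gene over the 4 libraries (colour and printed number) for the 6 genes (top block), 6 repressors (middle) and 6 output genes (bottom), with libraries in columns. In the siRNC column *Arntl* and *Npas2* are lowest while *Per2*, *Per3*, *Dbp* and *Usp2* are highest, and in the naive column *Dbp* and *Per3* are lowest.

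Genes for proteins that work with the 6 products were listed by role. Of the REV-ERB corepressor genes *Ncor1*, *Hdac3*, *Tbl1x*, *Tbl1xr1* and *Gps2*, none of 5 was 2-fold apart in any of the 6 comparisons, and log2 folds against naive lay between -0.69 and 0.3. With 4.22% to 12.5% of all kept genes 2-fold apart, a count of 0 in a list this short is near the background. None of the 10 measured kinase, ubiquitin ligase and deacetylase genes was 2-fold apart in any comparison either, with *Prkaa1*, a subunit of the energy sensor AMPK, furthest from 0 at 0.88 in the miR-27b against the naive liver. Of 7 coactivator genes, 2 were at least 2-fold higher than naive in each hepatectomised liver, beside 3.56% of the kept genes. *Ncoa3*, a nuclear receptor coactivator, was at 1.99 in the miR-27b, 2.11 in the siRNC and 1.52 in the saline liver, and *Ppargc1a*, a coactivator of ROR alpha on *Arntl* in mouse, at 2.96, 1.1 and 1.83. Between the miR-27b and siRNC livers the log2 fold of *Ppargc1a* was 1.85. Among relatives of the BMAL1 and CLOCK proteins, 4 genes passed the filter and none was 2-fold from naive, with the aryl hydrocarbon receptor gene *Ahr* at 1.19 in the miR-27b against the siRNC liver, while *Arntl2* fell below the filter, with 5.0 to 9.7 reads per library.

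Haem is the ligand of the REV-ERB receptors. Of 10 listed genes of haem synthesis and breakdown, *Hmox1*, the inducible haem oxygenase, was the one gene at least 2-fold from naive, at 3.04 in the miR-27b, 2.19 in the siRNC and 2.17 in the saline liver. Of all kept genes, 9.69% to 12.5% were at least 2-fold from naive, so 1 of 10 is near the background. *Alas1*, the first enzyme of synthesis in hepatocytes, was at -0.33, -0.34 and -0.73. Its erythroid counterpart *Alas2*, listed among the erythroid markers and not in the haem list, was at 3.08, 2.67 and 3.12.

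Liver genes that REV-ERB or ROR receptors are reported to control in rodents went both ways, with 11 of 15 listed genes passing the filter. In the siRNC against the naive liver 4 were at least 2-fold lower and 1 at least 2-fold higher (median -0.44), beside 3.46% and 6.24% of the kept genes. In the miR-27b against the siRNC liver 4 were at least 2-fold higher and none lower, beside 2.96% and 2.5% of the kept genes. *G6pc*, which encodes the glucose-6-phosphatase catalytic subunit, was at -0.46 in the miR-27b, -2.67 in the siRNC and -1.02 in the saline liver against naive. *Insig2*, a brake on SREBP processing, was at -1.76, -2.45 and -1.07. *Cyp7a1*, whose enzyme sets the pace of bile acid synthesis, was at 2.02, 2.68 and 0.41 in those livers. *Srebf1*, which encodes SREBP-1, was at -0.67, 0.04 and -2.12, with the saline and not the siRNC liver lowest.

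The genes nearest in pattern to each of the 6 were sought among 2770 named genes of high level by the root mean square difference of centred log2 values over the 4 libraries. *Npas2* was the nearest to *Arntl*, with a difference of 0.2 log2 units, followed by *G6pc* (0.234) and *Plin2*, a lipid droplet coat gene (0.488). For *Npas2* the nearest were *G6pc* (0.123), *Plin2* (0.305) and *Clpx*, a mitochondrial protease subunit (0.434). *Clock* was nearest to *Rasd1* (0.153), a small G protein gene, then *Plin2* (0.169) and *Clpx* (0.226). The genes *G6pc*, *Plin2* and *Clpx* therefore recur, though shared neighbours of genes that are themselves alike are not separate observations. Each was lowest in the siRNC liver. In siRNC against saline *G6pc* was at -1.65, but *Plin2* at -0.82 and *Clpx* at -0.71 were short of 2-fold.

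*Nr1d1* was nearest to *Nampt* (0.115), then *Asns*, asparagine synthetase (0.141), and *Acsm2a* (0.216). *Nr1d2* was nearest to *Ctgf*, a matricellular growth factor gene (0.029), *Tmx4* (0.074) and *Lgals5*, a rat galectin gene (0.136). *Rora* was nearest to *G0s2*, an inhibitor of lipolysis (0.13), the zinc transporter gene *Slc39a4* (0.158) and *Sez6* (0.17). Likeness over 4 libraries is a description, and of these 18 places, which hold 14 distinct genes, 2 hold a gene that was also among the 3 nearest with Pearson correlation as the measure and 4 one that was among them in the wider set of kept genes.

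Liver markers were present, and several lists of markers of other cells stood above naive beside the clock genes. All 9 hepatocyte markers, *Alb* among them, passed the filter and none was 2-fold apart in any comparison, with medians against naive of 0.12 in the miR-27b, -0.15 in the siRNC and 0.01 in the saline liver. Of 7 macrophage and Kupffer cell markers, 6, 4 and 6 were at least 2-fold higher than naive in the miR-27b, siRNC and saline livers (medians 1.62, 1.26 and 1.28), and all 4 erythroid markers were (2.55, 2.31 and 2.73). Of 8 stellate cell and matrix markers, 4, 7 and 3 were (1.39, 2.03 and 0.68). In the siRNC against the saline liver 5 of these were at least 2-fold higher, beside 2.35% of the kept genes. Of 6 endothelial markers, 3, 2 and 2 were at least 2-fold higher than naive (1.04, 0.61 and 0.86). Among all kept genes 8.47%, 6.24% and 6.04% were at least 2-fold higher than naive in the miR-27b, siRNC and saline livers. The neutrophil gene *S100a9* was at 5.19, 3.96 and 2.79 and the fatty acid binding protein gene *Fabp4* at 4.5, 3.37 and 2.97. The mesenchymal markers *Eng* and *Nt5e* were not 2-fold from naive in any liver. *Thy1*, of the same list, fell below the filter, with 1.0 reads in the miR-27b, 5.0 in the siRNC, 5.0 in the saline and 0.0 in the naive library. No T, NK, B or plasma cell marker passed the filter, and *Krt7*, *Sox9*, *Mpo*, *Elane*, *Cd79a* and *Adipoq* were listed at 0 in all 4 libraries. Summed levels of marker lists cannot be formed from within-gene differences, and in bulk tissue fewer cells of a type and less RNA per cell cannot be told apart. The part of these markers in the clock gene values was not tested.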

How the data were processed

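The deposited table holds log2 normalized values of 4 rat liver libraries, 1 per group, and its columns were matched to samples by title. The authors named DESeq and the build rn5, per the submitters' processing notes. The sources used here name no aligner or counter. From the values, each is a log2 of scaled reads, floored at 1, minus a gene baseline; the baseline equals a middle library in 77.3% of the 12874 genes that are not 0 throughout.

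The worth of 1 read was read from genes seen in 1 library. Levels came from the binary rounding of stored values and from a lattice of whole and fractional reads, with a posterior above 0.9; reads were recovered for 3378 genes (26.2%). In a simulation of 1999 genes 28.6% were recovered, 95.1% of them correctly. The simulated reads were drawn on the lattice that the recovery assumes, so this cannot show that the deposited values follow it. Kept genes had a recovered mean of at least 10 normalized reads or a probability of at least 0.5 of a baseline of 16 or more (9781 genes); the set of high level required 50 or 256 (2935 genes). Intervals are exact binomial (Clopper-Pearson, scipy 1.17.1), from reads rounded to whole numbers. No test was run, as each group has 1 library.

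The 6 genes, the lists and the rule for named genes (the 6 genes, the listed genes and the 3 genes nearest to each) were chosen with earlier results of these data known; *Thra* and the ROR motif were chosen after values or sequence had been seen. Some listed genes are not reported here. Other pseudocounts, scaling, thresholds and filters were tried.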

Additional observations from a re-analysis of the deposited data

How the results depend on the processing

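No paired analysis was possible because each group has 1 library and no replicate number. The log2 folds of the 6 genes were recomputed with pseudocounts of 5 and 20 and with recentred libraries, 108 in all. None changed sign where the fold was 2-fold or more, which these settings could not have produced. The same pseudocount added to 2 levels cannot reverse their order. Recentring shifted no library further from naive than the -0.025 of miR-27b. Of the 108 folds, 107 stayed inside their counting intervals. For all but *Rora* these intervals are at their widest, so this is a weak check. *Arntl* in the siRNC against the naive liver was -1.18 with a pseudocount of 20. A pseudocount needs a level, and where reads were not recovered the lowest level of the class was used, at which shrinkage is strongest. Recentring changed no count of the 6 genes. With a pseudocount of 20 the number of the 6 genes at least 2-fold apart was 2 for saline, 3 for siRNC and 1 for miR-27b against naive, 1 for siRNC against saline and 1 for miR-27b against siRNC; with a pseudocount of 5 it was 4 for saline against naive and 1 for miR-27b against naive. At 1.5-fold it was 6 for miR-27b against naive and 4 for miR-27b against siRNC, and at 3-fold 1 for saline against naive, 0 for miR-27b against naive and 1 for siRNC against saline.

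Counts of all genes 2-fold apart follow in the order saline, siRNC and miR-27b against naive, siRNC against saline, miR-27b against saline, and miR-27b against siRNC. They were 569, 498, 749, 202, 210 and 292 with a pseudocount of 5; 203, 186, 295, 59, 66 and 102 with 20; 2363, 2295, 2708, 1470, 1551 and 1693 at 1.5-fold; 310, 294, 446, 112, 96 and 153 at 3-fold; 1942, 1942, 2424, 1132, 1311 and 1492 without the filter; and 171, 162, 231, 58, 55 and 87 in the set of high level. The cause of these moves was not tested. Depth limits what can be seen: counting error alone gives a log2 ratio an SD of 0.51 at 16 reads per library.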
